A study of Mus musculus with 8 samples.

Results

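Interferon-stimulated genes are genes whose transcription is switched on when a cell senses interferon. The 56 genes described here were taken from a list of names and matched by symbol to the Ensembl gene numbers of the count tables on the mouse genome build GRCm38. All 56 were found among the 54838 genes counted, and all 56 were among the 19358 genes with enough reads to be tested. They were measured by RNA sequencing of submandibular gland, a major salivary gland, from male mice. In the 4 libraries of the control group (WT) the mice were wild type and of strain C57BL/6J. The other 4 libraries came from Dp16 mice, B6.129S7-Dp(16Lipi-Zbtb21)1Yey/J, whose strain is given as C57BL/6J and whose genotype is given as transgenic in the labels. Dp16 mice carry an extra copy of the chromosome 16 stretch from Lipi to Zbtb21, so that genes within it are present in 3 copies in every cell, and they are used as a model of Down syndrome. The stretch runs from position 75540514 to 97962622 of chromosome 16, and models only the part of human trisomy 21 that it covers. No treatment or infection is named for either group, and the age of the mice is not given in the sources used here. Libraries carry a number within each group, but nothing says whether each came from a separate animal, so p-values measure the spread between these libraries.

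Type I interferons bind the receptor made of Ifnar1 and Ifnar2, and interferon gamma binds the receptor made of Ifngr1 and Ifngr2. Both receptors act through Janus kinases and STAT proteins, which drive target genes through short promoter elements, the interferon-stimulated response element (ISRE) and the gamma-activated site (GAS). The products block viral replication, sense foreign nucleic acid or attack vacuoles that hold microbes. The subunits Ifnar1, Ifnar2 and Ifngr2 lie in the triplicated stretch, as do the members Mx1 and Mx2. The other 54 members lie outside it, including 4 that are also on chromosome 16 (Parp9, Parp14, Dtx3l and Rtp4).

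Promoter windows from RefSeq (GRCm38.p6), running from 250 bases before to 50 after a gene's start, were matched by symbol for 43 of the 56 members. An ISRE core, GAAANNGAAA read on either strand, stood in a window of 23 of the 43 (53.5%), against 3.99% of the 27025 genes with a window. A GAS core, TTCNNNGAA on either strand, stood in 14 of the 43 (32.6%), against 9.55% of all genes. Both were found in 8 members and neither in 14. A match is a description of the letters and not evidence of a site in use. The stretches below show ISRE cores, in capitals, for genes on which the results turn: antiviral genes first, then the GTPases, then Slfn5. Each is written 5′ to 3′ on the gene's own strand, and matches that overlap run together.
Isg15, chr4:156200855-156200916, minus strand: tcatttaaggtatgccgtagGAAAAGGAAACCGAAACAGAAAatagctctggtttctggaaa
Ifit1, chr19:34640765-34640833, plus strand: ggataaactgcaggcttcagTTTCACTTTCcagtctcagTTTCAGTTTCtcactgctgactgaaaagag
Oas1a, chr5:120907526-120907565, minus strand: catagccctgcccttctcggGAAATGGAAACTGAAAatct
Gbp7, chr3:142530263-142530312, plus strand: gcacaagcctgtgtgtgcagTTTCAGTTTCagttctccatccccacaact
Igtp, chr11:58199502-58199551, plus strand: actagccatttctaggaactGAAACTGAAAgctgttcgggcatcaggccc
Irgm2, chr11:58214893-58214942, plus strand: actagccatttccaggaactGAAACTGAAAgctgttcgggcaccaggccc
Tgtp2, chr11:49064253-49064302, minus strand: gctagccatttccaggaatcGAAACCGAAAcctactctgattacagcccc
Slfn5, chr11:82951927-82951976, plus strand: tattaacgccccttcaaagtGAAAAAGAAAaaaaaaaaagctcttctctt
The Isg15 stretch held 3 overlapping ISRE cores, and those of Ifit1 and Oas1a held 2 each. Among the GTPases, all 4 Gbp genes and all 4 Irg genes with a window had an ISRE core. Igtp and Irgm2, neighbours on chromosome 11, shared 48 of the 50 bases shown, and Tgtp2, from another place on that chromosome, shared 36 with Igtp and 37 with Irgm2. In these 3 stretches a GAS core, left in lower case, also stands just before the ISRE core. In the transcription factor gene Irf1 the match was instead a GAS core, in capitals in the stretch that follows, and none of the 3 Irf members had an ISRE core.
Irf1, chr11:53769904-53769952, plus strand: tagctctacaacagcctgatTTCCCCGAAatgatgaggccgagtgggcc

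Of the 56 interferon-stimulated genes, 54 had a positive log2 fold change in Dp16 against WT, where 51.1% of all genes tested did. The median over the 56 was 0.90, against 0.008 over all genes tested. Only Slfn5 rose by edgeR's quasi-likelihood test (Benjamini-Hochberg adjusted p below 0.05 over all genes tested) and none fell. Over all genes, 0.47% were called higher and 0.155% lower at that threshold. At an unadjusted edgeR p below 0.05, 47 of the 56 were higher (83.9%) and 0 lower, against 12.7% higher and 11.9% lower among all genes. At an adjusted p below 0.10, 17 were higher, against 3.85% of all genes. In 30 of the 56 (53.6%) every Dp16 library lay above every WT library, which held for 7.11% of all genes. The opposite, every Dp16 library below every WT library, held for 0 members and for 6.96% of all genes.

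Dp16 replicate 3 was the highest of the 8 libraries for 53 of the 56 members, the exceptions being Isg20, Slfn5 and Helz2. Reads of the 56 genes together came to 614 to 727 CPM (reads per 1000000 reads in genes, scaled by TMM) in the 4 WT libraries, to 838, 869 and 953 in Dp16 replicates 4, 2 and 1, and to 1773 in Dp16 replicate 3. Every Dp16 library was thus above every WT library, and replicate 3 stood well above the other Dp16 libraries. Without replicate 3 the median log2 fold change of the 56 fell to 0.44, with 53 still positive. An unadjusted edgeR p below 0.05 was then reached by 36 members, all higher, against 9.69% of all genes. Parp14 was then the only member to pass the test, with a log2 fold change of 0.56 (edgeR adjusted p = 0.0481), where 0.224% of all genes were called higher.

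**Figure D1:**
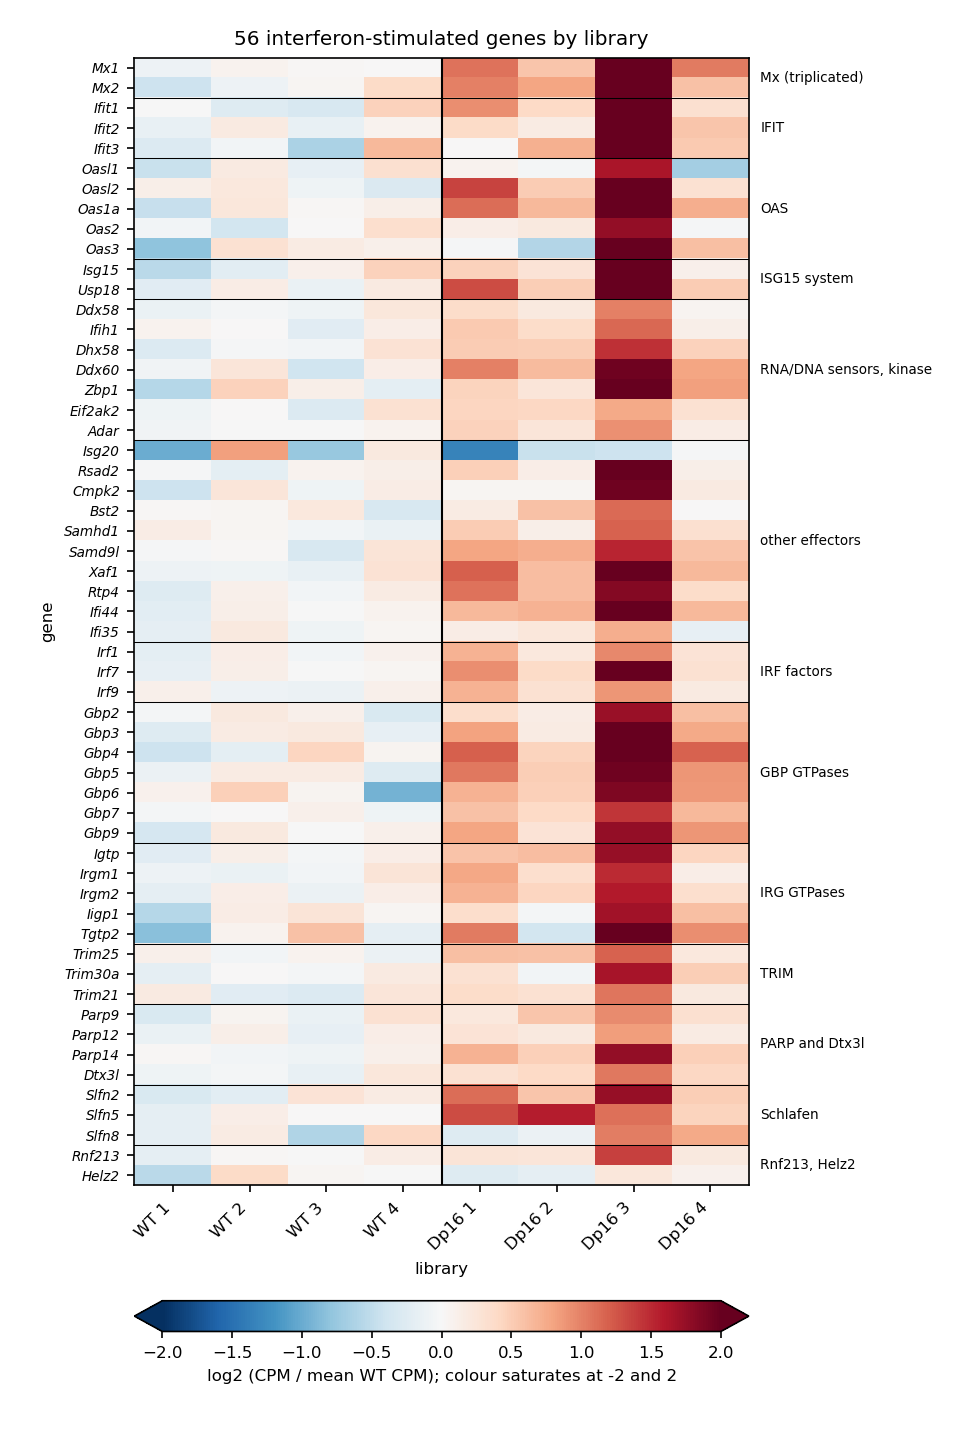
Heat map of the 56 genes (rows, ordered by role) in the 8 libraries (columns). Colour gives the log2 ratio of each library's CPM to the mean of the 4 WT libraries, and saturates at -2 and 2. The Dp16 replicate 3 column is the darkest red for 53 of the 56 genes, and most genes are a paler red in the other Dp16 libraries.

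The libraries held 90790542 to 115729892 reads in genes, the fewest in Dp16 replicate 3. Reads that fell in no annotated gene made up 13.8% to 15.9% of the reads in WT and 18.4% to 20.8% in Dp16, without overlap between the groups. Defining genes of the gland were abundant in every library: 8 acinar markers, among them Mucl2 and Prol1, summed to 219130 to 344196 CPM, and 9 granular duct markers to 57149 to 163381 CPM. The part of the read share in the results was not tested. In RNA from a whole gland, more cells of a type and more RNA per cell cannot be told apart.

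Mx1 and Mx2 encode dynamin-like GTPases that trap viral particles, and both are strongly induced by type I interferon. Laboratory strains related to C57BL/6 are known to carry damaged copies of both, so transcript levels do not report protein here. Mx1 (chromosome 16) had 1.67, 1.86, 1.80 and 1.80 CPM in WT and 3.78, 2.62, 21.1 and 3.68 CPM in Dp16. Mx2, its neighbour, had 1.64, 2.03, 2.24 and 2.84 CPM in WT and 4.39, 3.78, 15.7 and 3.29 CPM in Dp16. For both genes the groups did not overlap, and Dp16 replicate 3 was far above its group. The log2 fold change of Mx1 was 2.13 (SE 0.63, 95% confidence interval 0.71 to 3.54, edgeR adjusted p = 0.104), and that of Mx2 was 1.63 (SE 0.49, interval 0.52 to 2.74, edgeR adjusted p = 0.108). Without Dp16 replicate 3 the values were 0.91 for Mx1 (edgeR adjusted p = 0.0767) and 0.80 for Mx2 (edgeR adjusted p = 0.132). A ratio of 3 copies to 2, 1.5, is 0.58 on this scale. As ratios to the WT mean, Dp16 replicates 1, 2 and 4 had 2.12, 1.47 and 2.06 for Mx1 and 2.01, 1.73 and 1.502 for Mx2, and replicate 3 had 11.8 and 7.18.

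The antiviral type I genes comprised Isg15, 3 Ifit and 5 Oas genes. All 9 had positive log2 fold changes, with a median of 1.26 that fell to 0.38 without Dp16 replicate 3. With limma-voom, which weights libraries by quality, the median was 0.62. None passed the edgeR test, 5 had an unadjusted edgeR p below 0.05, and 2 (Oasl2 and Oas1a) had all Dp16 libraries above all WT libraries. Over all genes, 12.7% were higher at that unadjusted p, and 7.11% had all Dp16 libraries above all WT libraries. Isg15, a ubiquitin-like protein joined to other proteins, had 1.46, 1.84, 2.27 and 2.93 CPM in WT and 2.92, 2.57, 10.02 and 2.27 CPM in Dp16. Outside Dp16 replicate 3, all its Dp16 values were below the highest WT value. Its log2 fold change was 1.06 (SE 0.48, edgeR adjusted p = 0.208), and 0.28 without that library.

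The Ifit proteins bind viral RNA that lacks the cap marks of the host and stop its translation. Ifit1 had 3.48, 2.95, 2.82 and 4.82 CPM in WT and 6.67, 4.65, 22.8 and 4.40 CPM in Dp16. Ifit3, which stabilises the Ifit complex, had 2.25, 2.61, 1.77 and 4.28 CPM in WT and 2.73, 4.44, 16.8 and 3.94 CPM in Dp16. In both the groups overlapped through WT replicate 4, and Dp16 replicate 3 stood alone at the top. The log2 fold changes of Ifit1, Ifit2 and Ifit3 were 1.45, 1.02 and 1.35, and 0.58, 0.38 and 0.44 without Dp16 replicate 3. Ifit3 has a near-identical copy, Ifit3b. Reads that match both may be missing from these counts, because reads without a unique position were not assigned to genes.

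The Oas enzymes make the messenger that activates RNase L once they meet double-stranded RNA, and Oasl1 and Oasl2 are related proteins that lack this activity or have little of it. Oas1a had the smallest p of the family, with 1.10, 1.76, 1.54 and 1.64 CPM in WT and 3.26, 2.37, 6.30 and 2.49 CPM in Dp16. Oasl2 had 10.6, 11.4, 9.20 and 7.99 CPM in WT and 24.97, 13.98, 58.3 and 12.1 CPM in Dp16. In these 2 genes every Dp16 library was above WT, with log2 fold changes of 1.26 (edgeR adjusted p = 0.0815) and 1.48 (edgeR adjusted p = 0.110). Oas2 had 1.55, 1.25, 1.62 and 2.03 CPM in WT and 1.77, 1.84, 5.46 and 1.58 CPM in Dp16. Its Dp16 libraries other than replicate 3 lay within the WT range. Without replicate 3 the log2 fold changes of Oas2 and Oas3 were 0.10 and 0.08, and that of Oasl1 turned from 0.52 to -0.18. Oas1a shares sequence with its close copies, among them Oas1g, which makes its count uncertain.

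**Figure D2:**
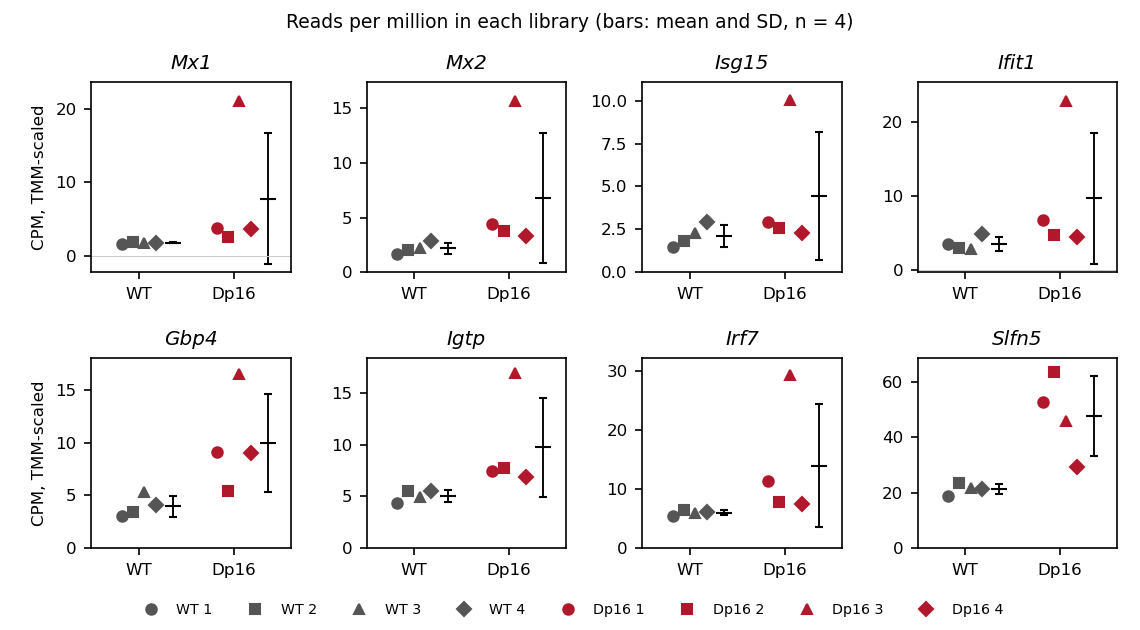
CPM (vertical axes, linear, each with its own scale) of 8 genes in the 4 WT libraries (grey) and the 4 Dp16 libraries (red). Symbols mark the replicate number, and black bars give the mean and SD of each group (n = 4). Dp16 replicate 3 is the highest point in every panel except Slfn5, where Dp16 replicate 2 is.

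Among genes that act on interferon signalling itself, Usp18, which strips Isg15 from proteins and damps the type I receptor, had 2.73, 3.56, 2.93 and 3.62 CPM in WT and 7.94, 4.52, 17.6 and 4.58 CPM in Dp16. All Dp16 values were higher, and the log2 fold change was 1.43 (edgeR adjusted p = 0.0990), or 0.82 without Dp16 replicate 3. The 3 interferon regulatory factors were also above WT in every Dp16 library. Irf7, which amplifies type I interferon production, had 5.39, 6.49, 5.99 and 6.15 CPM in WT and 11.4, 7.86, 29.3 and 7.41 CPM in Dp16. Irf9, the DNA-binding subunit of the complex that acts at the ISRE, had 22.0, 19.0, 18.8 and 21.8 CPM in WT and 33.02, 25.3, 37.7 and 23.2 CPM in Dp16. The log2 fold changes were 1.22 for Irf7 (SE 0.40, edgeR adjusted p = 0.125), 0.55 for Irf9 (SE 0.15, edgeR adjusted p = 0.0919) and 0.57 for Irf1 (SE 0.17, edgeR adjusted p = 0.103). Without Dp16 replicate 3 they were 0.57, 0.42 and 0.41.

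Sensors of foreign nucleic acid had log2 fold changes from 0.45 to 1.39 in all 7 members. In 4 of the 7, every Dp16 library lay above every WT library, against 7.11% of all genes. Ddx60, a helicase linked to RNA sensing, had the smallest p of these, with 6.05, 7.52, 4.83 and 6.93 CPM in WT and 12.7, 9.85, 24.4 and 10.9 CPM in Dp16. Its log2 fold change was 1.19 (SE 0.28, edgeR adjusted p = 0.0732), and 0.81 without Dp16 replicate 3. The cytosolic RNA sensors Ddx58 (RIG-I) and Ifih1 (MDA5) had lower values, 0.45 and 0.60. The RNA-activated kinase Eif2ak2 (PKR) and the RNA-editing enzyme Adar had 0.49 and 0.47, with every Dp16 library above every WT library. For Eif2ak2 the lowest Dp16 library, with 30.73 CPM, only just cleared the highest WT library, with 30.67 CPM. Zbp1, a sensor that can start cell death, had 1.39, and 0.52 without Dp16 replicate 3.

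Other antiviral effectors formed a group of 10 genes, of which 9 had positive log2 fold changes. In 4 (Samd9l, Xaf1, Rtp4 and Ifi44) every Dp16 library lay above every WT library, against 7.11% of all genes. Samd9l, an inhibitor of viral protein synthesis, had 21.2, 21.9, 17.2 and 25.6 CPM in WT and 37.1, 35.5, 61.6 and 32.0 CPM in Dp16. The lowest Dp16 library was above the highest WT library by a clear margin, and the log2 fold change was 0.95 (SE 0.21, edgeR adjusted p = 0.0677), or 0.70 without Dp16 replicate 3. Rsad2 (viperin), which makes a chain-terminating nucleotide, and its neighbour Cmpk2 depended far more on that library: 1.12 became 0.25 for Rsad2 and 0.82 became 0.09 for Cmpk2. Bst2 (tetherin), which holds budding virus at the cell surface, had a log2 fold change of 0.54. Isg20, an RNA-degrading exonuclease, had a log2 fold change of -0.48 (SE 0.41, 95% confidence interval -1.40 to 0.43, edgeR adjusted p = 0.481), with overlapping groups, and WT replicate 2 was its highest library.

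Interferon gamma induces 2 families of large GTPases that attack the vacuoles of intracellular microbes, the guanylate-binding proteins (Gbp) and the immunity-related GTPases (Irg). All 12 members had a positive log2 fold change and an unadjusted edgeR p below 0.05, with a median of 0.99 that fell to 0.58 without Dp16 replicate 3. None passed the adjusted test, and 7 had all Dp16 libraries above all WT libraries. Over all genes, 12.7% were higher at that unadjusted p, and 7.11% had all Dp16 libraries above all WT libraries. Gbp4 had the smallest p of the Gbp genes, with 3.00, 3.47, 5.34 and 4.11 CPM in WT and 9.16, 5.41, 16.5 and 9.03 CPM in Dp16. Dp16 replicate 2 only just cleared the highest WT library, and the other Dp16 libraries were well above it. The log2 fold change of Gbp4 was 1.33 (SE 0.32, edgeR adjusted p = 0.0732), and 0.98 without Dp16 replicate 3. Gbp2 had 8.03, 9.49, 8.86 and 6.68 CPM in WT and 10.6, 9.21, 27.2 and 12.5 CPM in Dp16, so that Dp16 replicate 2 fell within the WT range. Its log2 fold change was 0.85 (SE 0.32, edgeR adjusted p = 0.154), and 0.38 without Dp16 replicate 3. Gbp5 and Gbp7, with 1.20 and 0.83, had no overlap between groups. Gbp genes are close relatives, and those of Gbp4 and Gbp9 overlap in the annotation on the same strand, so reads may be split or lost among them.

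Igtp (Irgm3) and Irgm1 are Irg proteins that guard the cell's own membranes and regulate the effector Irg proteins. Igtp had 4.32, 5.48, 4.93 and 5.55 CPM in WT and 7.50, 7.74, 16.9 and 6.84 CPM in Dp16. Irgm1 had 15.3, 15.1, 15.8 and 19.8 CPM in WT and 28.2, 20.8, 46.4 and 18.2 CPM in Dp16. The Igtp groups did not overlap, whereas for Irgm1 Dp16 replicate 4 was below WT replicate 4. Their log2 fold changes were 0.94 (SE 0.28, edgeR adjusted p = 0.104) and 0.78 (SE 0.27, edgeR adjusted p = 0.131), or 0.54 and 0.44 without Dp16 replicate 3. Iigp1, an effector Irg that coats parasite vacuoles, had 5.01, 8.21, 8.88 and 7.62 CPM in WT and 9.51, 7.24, 23.8 and 11.3 CPM in Dp16. Here Dp16 replicate 2 was inside the WT range, and the log2 fold change was 0.80 (SE 0.35, edgeR adjusted p = 0.194). Igtp and Irgm2 overlap in the annotation on the same strand, and Tgtp2 has a near-identical copy, Tgtp1, so the counts of these are uncertain.

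The ubiquitin ligase, ADP-ribosylation and Schlafen genes completed the list. Trim25, the ligase that switches on RIG-I, had 22.4, 20.1, 21.9 and 19.3 CPM in WT and 31.8, 31.4, 47.2 and 24.4 CPM in Dp16, a log2 fold change of 0.69 (SE 0.18, edgeR adjusted p = 0.0815). Parp14, an ADP-ribosyltransferase, had 28.8, 27.5, 26.7 and 30.5 CPM in WT and 46.2, 39.7, 95.8 and 39.3 CPM in Dp16. Both genes were above WT in every Dp16 library. The log2 fold change of Parp14 was 0.96 (SE 0.27, edgeR adjusted p = 0.0936). It was 1 of 26 members that passed in DESeq2 (Parp14 DESeq2 adjusted p = 0.00984), of 54 with a DESeq2 p. DESeq2 called 1143 of 33107 genes higher. Parp14 also passed in edgeR without Dp16 replicate 3, as given above. Parp9 and Dtx3l, which encode a pair of partner proteins and share a stretch of 682 bases on opposite strands, had 0.54 and 0.58. Rnf213, a very large ubiquitin ligase, had 104, 120, 117 and 131 CPM in WT and 142, 139, 306 and 135 CPM in Dp16, with no overlap and a log2 fold change of 0.61 (SE 0.26, edgeR adjusted p = 0.185), or 0.23 without Dp16 replicate 3. Helz2 showed almost no difference, -0.02 (SE 0.18, edgeR adjusted p = 0.958).

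Slfn5, a Schlafen family protein of the nucleus, rose in Dp16. It had 18.9, 23.5, 21.5 and 21.4 CPM in WT and 52.6, 63.5, 45.8 and 29.2 CPM in Dp16, or 21.3 ± 1.9 against 47.8 ± 14.4 (SD, n = 4 each). Its order among the Dp16 libraries differed from that of most other members: replicate 2 was highest and replicate 3 only the third. The log2 fold change was 1.16 (SE 0.20, edgeR adjusted p = 0.0450), and 1.18 without Dp16 replicate 3. The size of the difference was thus similar with and without that library. The call was lost when any 1 WT library was left out, where the edgeR adjusted p of replicates 1 to 4 was 0.0678, 0.132, 0.126 and 0.110 in turn. It was also lost without Dp16 replicate 1 (edgeR adjusted p = 0.134) or Dp16 replicate 3 (edgeR adjusted p = 0.0850). Its relatives Slfn2 and Slfn8 had log2 fold changes of 1.06 (edgeR adjusted p = 0.0833) and 0.45 (edgeR adjusted p = 0.390).

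**Figure D3:**
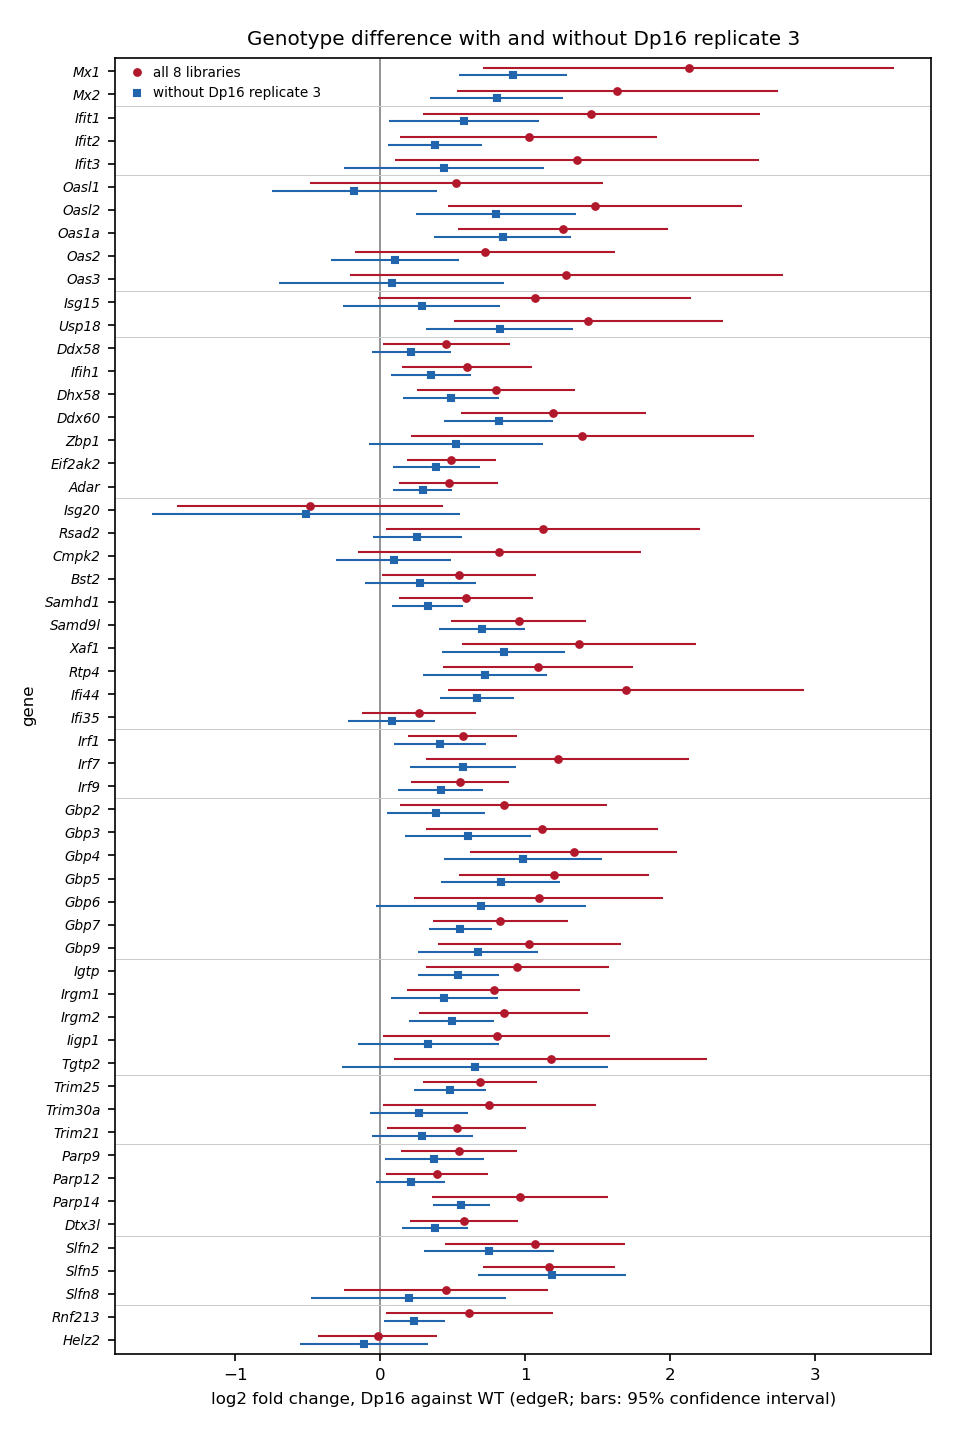
Log2 fold change of Dp16 against WT (horizontal axis) with its 95% confidence interval for each of the 56 genes, from all 8 libraries (red circles) and without Dp16 replicate 3 (blue squares). Without that library most estimates move toward 0 and their intervals narrow, as for Mx1 from 2.13 to 0.91, whereas Slfn5 stays at 1.16 and 1.18.

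The 3 classes were set side by side in each library. Each class was summarised in a library by the mean of its log2 CPM values less their WT mean. For the 9 type I genes these values were -0.25, 0.06, -0.08 and 0.28 in WT and 0.52, 0.29, 2.29 and 0.30 in Dp16. For the 12 GTPases they were -0.23, 0.14, 0.16 and -0.07 in WT and 0.76, 0.31, 1.80 and 0.71 in Dp16. For Mx1 and Mx2 they were -0.24, -0.01, 0.04 and 0.21 in WT and 1.05, 0.68, 3.21 and 0.82 in Dp16. On this mean all 3 classes lay above WT in every Dp16 library, the type I genes by little outside replicates 1 and 3. With the median in place of the mean, the type I groups overlapped, with 0.32 in Dp16 replicate 2 and 0.34 in WT replicate 4. In Dp16 replicates 1 to 4, the number of type I genes above the highest WT library was 4, 3, 9 and 4 of 9. The same number was 12, 8, 12 and 11 of 12 for the GTPases, and 2 of 2 in each for Mx. The difference between classes was not tested.

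**Figure D4:**
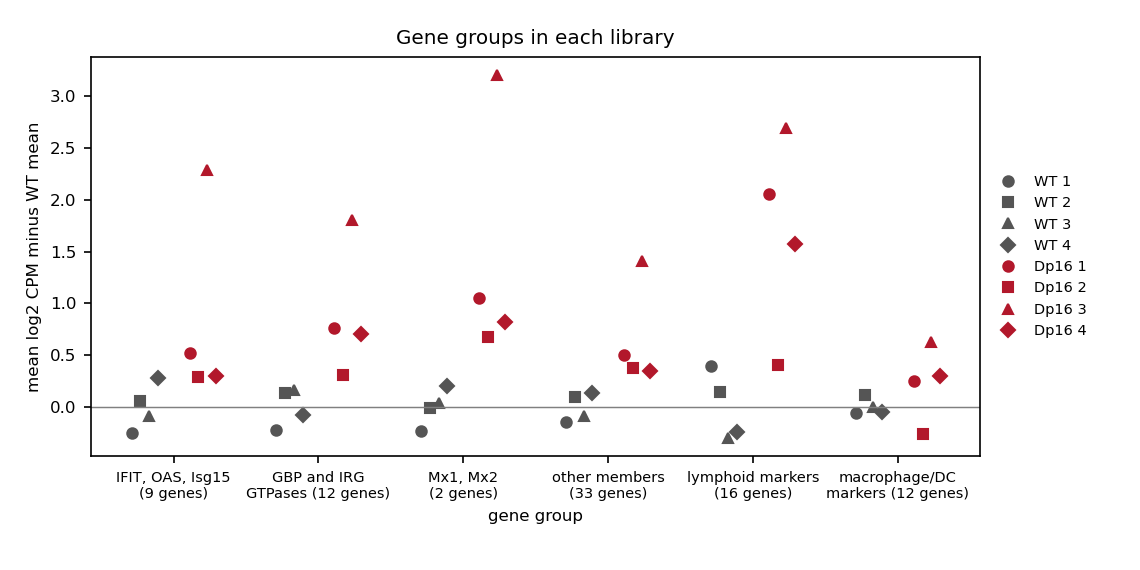
Mean log2 CPM less its WT mean (vertical axis) of 4 groups of interferon-stimulated genes and of 2 groups of cell markers, for each WT library (grey) and Dp16 library (red), with symbols for the replicate number. Dp16 replicate 3 is the top point in every group, at 2.29 for the type I genes, 1.80 for the GTPases, 3.21 for Mx1 and Mx2 and 2.69 for the lymphoid markers. DC stands for dendritic cell.

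Because genes differ in length, levels were compared between members per kilobase of exon. In WT the highest were Bst2 with 7.59, Rnf213 with 6.98 and Ifi35 with 6.32 CPM per kb. The lowest were Gbp6 with 0.0897, Oas3 with 0.183 and Tgtp2 with 0.292 CPM per kb. The members with the largest log2 fold changes, Mx1, Ifi44 and Mx2, were thus not those with the highest WT levels.

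Upstream of these genes, the interferons themselves were at the limit of detection. None of 20 interferon genes had enough reads to be tested. Ifng had 1, 2, 4 and 9 reads in the WT libraries and 2, 4, 23 and 6 in the Dp16 libraries, the most in Dp16 replicate 3. Ifnb1 had 1 read, in that same library, and Ifna2 had 1 read, in WT replicate 2. The other 17 were at 0 in all libraries, where 3 reads in a library correspond to 0.0260 to 0.0312 CPM. Of 18 receptor, Janus kinase, STAT and related genes tested, 3 rose and 0 fell, against 0.47% and 0.155% of all genes. All 3 are triplicated receptor subunits. Il10rb, another receptor gene of the list within the triplicated stretch, did not pass the test (log2 fold change 0.40, SE 0.12, edgeR adjusted p = 0.101). Its groups overlapped.

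Ifnar1 had 29.2, 32.1, 30.6 and 33.8 CPM in WT and 45.4, 42.7, 44.9 and 49.99 CPM in Dp16, Ifnar2 had 12.03, 12.3, 11.1 and 10.98 against 20.5, 20.1, 19.9 and 19.4 CPM, and Ifngr2 had 12.7, 12.6, 13.5 and 15.3 against 20.2, 20.7, 21.2 and 20.7 CPM. The 4 Dp16 libraries were close together in each, and replicate 3 did not stand apart. The log2 fold changes were 0.54 for Ifnar1 (SE 0.07, edgeR adjusted p = 0.0276), 0.79 for Ifnar2 (SE 0.07, edgeR adjusted p = 0.0122) and 0.61 for Ifngr2 (SE 0.08, edgeR adjusted p = 0.0265). Stat2, a transducer of the type I signal, had a log2 fold change of 0.34 (SE 0.20, edgeR adjusted p = 0.305). Irf2, a repressor at interferon promoters, had 0.35 (SE 0.08, edgeR adjusted p = 0.0680).

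Of 49 further interferon-stimulated genes outside the list of 56, 48 were tested. Of these, 45 had positive log2 fold changes, against 51.1% of all genes tested. In 16, every Dp16 library lay above every WT library, against 7.11% of all genes. The median over the 48 was 0.75, and 0.33 without Dp16 replicate 3. Apol9a, an interferon-induced apolipoprotein L, rose, with 0.18, 0.31, 0.21 and 0.18 CPM in WT and 1.42, 0.74, 1.26 and 0.55 CPM in Dp16 (log2 fold change 2.16, SE 0.36, edgeR adjusted p = 0.0428). Sp100, a nuclear body protein, had a log2 fold change of 1.02 (edgeR adjusted p = 0.0598), Phf11d 0.82 (edgeR adjusted p = 0.0648) and Uba7, the activating enzyme for Isg15, 0.76 (edgeR adjusted p = 0.0710).

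Markers of lymphocytes were also higher in the Dp16 libraries. All 16 lymphoid markers had positive log2 fold changes, against 51.1% of all genes tested. Their median was 1.99, and 1.42 without Dp16 replicate 3. An unadjusted edgeR p below 0.05 was reached by 15, all higher, against 12.7% of all genes. In 7, every Dp16 library lay above every WT library, against 7.11% of all genes. Of the 16, 1 (Klrd1, a natural killer cell receptor) rose, against 0.47% of all genes, and none fell. Their summed level was 7.67 to 10.8 CPM in WT and 31.5, 13.6, 48.3 and 23.0 CPM in Dp16. In Dp16 it was highest in replicate 3 and lowest in replicate 2. The summed level of the 56 interferon-stimulated genes was also highest in replicate 3, and its lowest Dp16 library was replicate 4. By the mean of log2 CPM less its WT mean, the lowest Dp16 library of the 56 was instead replicate 2. That mean was 0.36 in replicate 2 and 0.43 in replicate 4. Every lymphoid marker of the list had reads in every library. Of 12 macrophage and dendritic cell markers none passed the test, and their summed level was 281 to 334 CPM in WT and 301, 261, 449 and 324 CPM in Dp16, so that only replicate 3 was above WT. Acinar cell markers lay in the opposite direction. All 7 tested had negative log2 fold changes, with a median of -0.66. The mean over the 7 of log2 CPM less its WT mean was -0.14, -0.60, 1.51 and -0.77 in WT. In Dp16 it was -0.96, -0.96, -0.72 and 0.05, so that the groups overlapped. For 3 genes (Aqp5, Bhlha15 and Tesc) every Dp16 library lay below every WT library, against 6.96% of all genes. None of the 7 passed the edgeR test, and those 3 had adjusted p-values of 0.0589, 0.0589 and 0.0580. The part of these cells in the levels of the interferon-stimulated genes was not tested.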

How the data were processed

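Whole-number read counts per Ensembl gene were deposited by the authors, 1 table for each of the 8 libraries, unnormalized. Per the labels' protocols, total RNA was isolated with a miRNeasy kit and libraries were made with a TruSeq stranded total RNA kit with RiboZero Gold. Per the submitters' processing notes, the tools were STAR, HTSeq, FastQC and DESeq2, on GRCm38. For their versions, the gene annotation and the use of strand, the sources used here give no statement. Rows naming no gene held 58.1% to 65.4% of each table's reads and entered neither library sizes nor tests.

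Gene symbols, coordinates and exon lengths came from GENCODE M21 on GRCm38, which matched 54809 of the 54838 gene numbers. Genes passing edgeR's filterByExpr were tested, Dp16 against WT, with edgeR 4.0.16 (R 4.3.3): TMM scaling, the quasi-likelihood F-test, and Benjamini-Hochberg adjustment over all 19358 genes. Genes with an adjusted p below 0.05 were called. Levels are TMM-scaled counts per 1000000. Group summaries per library use log2 CPM with a prior count of 2. Alternatives used DESeq2 1.42.0, limma 3.58.1, other scaling and filters, a replicate block, a threshold of 0.10 and each library left out. The edgeR, DESeq2 and limma steps were tested on simulated data first. Chi-square comparison of counts found no pair of replicates within sampling noise.

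The 56 members and all lists were chosen with earlier results of these data known. Values per library are given for a fixed set (Mx1, Mx2, Isg15, Ifit1, Ifit3, Oas2, Oasl2, Irf7, Gbp2, Gbp4, Igtp, Irgm1, Iigp1), for members called by edgeR, and for the member of each role with the smallest p. Other pathway genes were named where called, with Stat2, Ifng and Ifnb1, and otherwise up to 4 per list by smallest p. A gene of the signalling list is not reported here. Lists describe markers of lymphocytes, macrophages and dendritic cells, acinar, granular duct, endothelial and myoepithelial cells. Of the last 2, 0 of 5 and 0 of 4 tested genes passed the test. Klk1, a granular duct kallikrein, fell in Dp16 (log2 fold change -0.70, edgeR adjusted p = 0.0358).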

Additional observations from a re-analysis of the deposited data

Results flagged for a closer look

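For each of the 56 genes and each group of 4 libraries, the gap between an extreme library and its nearest neighbour was set against the group's range, with Dixon's 95% critical value. Values were CPM, not their logarithms. Of 112 groups, 21 had a library beyond that critical value. Chance gives about 1 in 20 for normally distributed values, which CPM need not be. Of the 21, 19 were high values of Dp16 replicate 3. These genes share libraries, so the 19 are not independent.

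Among the antiviral genes, Dp16 replicate 3 stood apart with 21.1 CPM for Mx1, 15.7 for Mx2, 22.8 for Ifit1, 19.3 for Ifit2, 16.8 for Ifit3, 5.46 for Oas2, 8.50 for Oas3 and 10.02 for Isg15. The other 3 Dp16 libraries lay between 2.62 and 3.78 CPM for Mx1 and between 2.27 and 2.92 CPM for Isg15. Among sensors and effectors it stood apart with 11.3 CPM for Dhx58, 9.44 for Zbp1, 25.5 for Rsad2, 12.2 for Cmpk2 and 39.6 for Ifi44, the last against 7.57 to 7.82 CPM in the other Dp16 libraries. Igtp was the only 1 of the 12 GTPase genes in which it stood apart, with 16.9 CPM. The remaining genes were Trim21 with 11.1 CPM, Parp12 with 32.1, Parp14 with 95.8, Dtx3l with 53.1 and Rnf213 with 306.

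The other 2 were high values of WT replicate 4, 3.31 CPM for Xaf1 and 19.8 CPM for Irgm1.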

How the results depend on the processing

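The number of genes called over the whole table moved with the test: 121 in the reported edgeR fit (75.2% of them higher), 1987 with DESeq2 (57.5% higher), 396 with limma-voom and sample weights (62.4% higher), 223 without a filter on low counts (70.9% higher) and 1308 at an adjusted p below 0.10 (57.0% higher). Members called higher were 1, 26 with DESeq2, 2 with limma-voom, 2 without the filter and 17 at 0.10. Among all genes tested, those called higher were 91 of 19358 as reported and 1143 of 33107 with DESeq2. They were 247 of 19358 with limma-voom, 158 of 33168 without the filter and 746 of 19358 at 0.10. DESeq2 called Mx2 (log2 fold change 1.62, DESeq2 adjusted p = 0.0461) and gave no p for Mx1 and Ifi44. The 25 members that DESeq2 called besides Slfn5 all had positive estimates in both tools. Relative log expression scaling, TMM without the 1% most abundant genes and a filter of 1 CPM in 4 libraries left the count of members called at 1.

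Leaving out each library in turn gave 0 to 446 genes called and 0 to 5 members called higher. It gave 30 to 39 members with all Dp16 above all WT libraries, against 7.11% to 11.7% of all genes, an alternative chosen after seeing the data. Leaving out a library can only keep or raise this count, so its lower end says nothing of stability. The lowest gene count, 0, came without WT replicate 2 and without Dp16 replicate 1, where 3376 and 3583 genes, 38 and 47 of them members, had an unadjusted edgeR p below 0.05. The highest, 446, came without Dp16 replicate 2, where 354 of 19715 genes were called higher. In that fit Ddx60, Gbp4, Gbp5 and Gbp9 were called besides Slfn5. Medians over the libraries left out ran from 0.38 to 1.41 for the type I genes, 0.58 to 1.12 for the GTPases and 0.43 to 1.00 for the 54 members outside the triplicated stretch, each lowest without Dp16 replicate 3. Mx1 ran from 0.91 to 2.41 and Mx2 from 0.80 to 1.85, and limma-voom gave 1.32 and 1.14.

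Only Helz2 and Oasl1 changed sign. Helz2, -0.02 as reported, was 0.013 with the 1 CPM filter, 0.0042 with the replicate block, 0.13 without WT replicate 2, and 0.05 and 0.03 without Dp16 replicates 1 and 2. Over all libraries left out in turn it ranged from -0.17 to 0.13. Oasl1 ranged from -0.18, without Dp16 replicate 3, to 0.76, without Dp16 replicate 4. The cause was not tested in any of these.

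With replicate number as a block, 776 of 19358 genes were called, of which 360 (46.4%) were higher. In that fit 4 members were called higher, Gbp4, Gbp7 and Trim25 besides Slfn5. The median of the type I genes was 0.81 with the block. Deviations of same-numbered WT and Dp16 libraries correlated at 0.19, 0.13, 0.08 and 0.10 across genes, 3 of the 4 above 0.1, and WT replicates 3 and 4 correlated best with Dp16 replicates 1 and 2. The labels do not say that numbers mark pairs, and the numbers were not taken to pair the libraries. The depth allowed every member to be tested, but not the interferon genes.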

Other observations

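In the further interferon-stimulated genes, 1 library differed from the rest in a cluster of Trim genes on chromosome 7 of GRCm38, which was singled out after its values were seen. Trim12a, at 104299894 to 104315466, had 350 to 617 reads in the WT libraries and 880, 5, 961 and 745 reads in Dp16 replicates 1 to 4, so that it was nearly unread in replicate 2 alone. Trim30d had 158 to 311 reads in WT and 247, 59, 710 and 244 in Dp16, and Trim34a had 334 to 517 in WT and 824, 272, 1079 and 516 in Dp16, with replicate 2 the lowest library for both. The member Trim30a, at 104409025 to 104465193, lies between Trim12a and Trim30d. It had 7.03 CPM in Dp16 replicate 2, within the 6.504 to 8.32 CPM of the WT libraries. The 3 genes share sequence with others of the cluster, which makes their counts uncertain.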
